A study of Homo sapiens with 12 samples.

Results

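The fibrillar collagen genes described here are COL1A1, COL1A2, COL2A1, COL3A1, COL5A1, COL5A2, COL5A3, COL11A1, COL24A1 and COL27A1. They were taken as a list of gene symbols and looked up in the count table through its gene identifiers. All 10 were found among the 58721 genes of the table, and all 10 were among the 21013 genes with enough counts to be tested. RNA-seq of polyadenylated RNA was performed in EW8 and TC71, 2 cell lines of Ewing sarcoma, a tumour of bone and soft tissue in the young that is mostly driven by the fusion protein EWS-FLI1. Both lines carried lentiviral constructs for the Tet-On 3G transactivator and for c-Jun and c-Fos, joined by a self-cleaving peptide behind a doxycycline-inducible TRE3G promoter. EW8 vehicle and TC71 vehicle cells received DMSO for 72 h and are given the genotype WT in the labels, although they carried the same constructs. EW8 doxycycline and TC71 doxycycline cells received 2000 ng/ml doxycycline for 72 h and are given the genotype AP1_overexpression. Each of the 4 groups had 3 libraries, and nothing in the labels states whether these came from separate cultures, so that p-values measure the spread between these libraries. No group received doxycycline without the c-Jun and c-Fos construct, and an effect of doxycycline alone cannot be told apart from that of the transgenes.

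Fibrillar collagens are the rod-like proteins of tendon, bone, cartilage, skin and other connective tissues. Each molecule is a helical trimer of alpha chains, secreted as a procollagen whose end pieces are cut off before the molecules line up into banded fibrils. Types I, II and III form the bulk of fibrils, types V and XI sit within them and set where fibrils start and how thick they grow, and types XXIV and XXVII are minor members of the family. AP-1, the dimer of Jun and Fos proteins, is a transcription factor with known targets among genes of the extracellular matrix.

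The depth was between 42860665 and 60853649 counts per library. JUN rose from 21.6 ± 2.61 to 473.7 ± 44.8 CPM (counts per 1000000 counts of a library, SD, n = 3) in EW8 and from 20.7 ± 4.01 to 755.5 ± 54.6 CPM in TC71. FOS rose from 36.8 ± 0.814 to 1078 ± 72 CPM in EW8 and from 11.7 ± 0.426 to 1580 ± 120 CPM in TC71. Counts of the transgenes and of the cells' own JUN and FOS could not be separated. All 10 Ewing sarcoma markers were above the detection floor in every group. They summed to 3020 to 3060 CPM under vehicle and 2810 to 2890 CPM under doxycycline in EW8. In TC71 they summed to 2660 to 2900 CPM and 2430 to 2510 CPM. In each line 1 of them was called lower and none higher, LIPI at -1.4 in EW8 and GLI1 at -1.3 in TC71 (list medians -0.41 and -0.5). The floor was set at 6 counts in every library of a group, which is 3 read pairs, since both mates of a pair were counted. Of 10 fibroblast markers, DPT and TCF21 were at the floor in every group, while the summed level of the list lay between 99.8 and 158 CPM in the TC71 vehicle libraries and between 297 and 309 CPM in the TC71 doxycycline libraries. Of its 8 tested genes, 3 were called higher and 3 lower by doxycycline in TC71 (median log2 fold change 0.19), S100A4, COL6A3 and FAP rising and PDGFRB, DCN and LUM falling. In EW8 the same sum went from 117 to 127 CPM under vehicle to 134 to 144 CPM under doxycycline, with 3 genes called higher and 2 lower. The 5 endothelial markers summed to 7.69 to 8.72 CPM under vehicle and 45.6 to 51 CPM under doxycycline in EW8, where 3 were called higher, and to 0.0644 to 0.382 CPM and 3.9 to 5.19 CPM in TC71, where 4 were called higher, TEK among them at the floor in both groups. The 9 osteoblast markers summed to 26 to 30.7 CPM and 51.6 to 54.5 CPM in EW8 and to 104 to 110 CPM and 116 to 120 CPM in TC71. Of the 5 tested, 3 were called higher in each line and 1 lower in TC71. SP7, BGLAP, IBSP and DMP1 were at the floor in both EW8 groups and in TC71 doxycycline libraries, and IBSP and DMP1 also in TC71 vehicle libraries. The 5 leukocyte markers summed to 65.3 to 73.2 CPM and 77.6 to 81.8 CPM in EW8, nearly all of it PTPRC, and to at most 1.15 CPM in TC71, with 1 of 4 tested called higher in each line. The part of these marker genes in the collagen results was not tested. In such bulk RNA, more RNA per cell and more cells of a kind cannot be told apart. TC71 vehicle replicate 1 stood slightly apart from the other libraries of its group, with root mean square log2 differences of 0.694 and 0.735 to them, against 0.575 to 0.676 for all other pairs of libraries within a group.

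Under vehicle, the lines made different sets of fibrillar collagen transcripts. Levels were compared between genes as TPM (transcripts per 1000000 transcripts), which divides the counts by exon length. In EW8, COL5A1 was the highest at 43.3 ± 1.95 TPM (SD, n = 3), followed by COL5A2 at 27.8 ± 1.09 TPM, COL3A1 at 24.9 ± 1.46 TPM, COL1A1 at 10.4 ± 0.769 TPM, COL5A3 at 6.01 ± 0.63 TPM and COL27A1 at 3.69 ± 0.0621 TPM. The libraries of each of these genes were separate from those of the next gene in the order. The other 4 genes, COL24A1, COL2A1, COL1A2 and COL11A1, were below 0.3 TPM in EW8 vehicle libraries, and each overlapped the next in the order.

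In TC71 vehicle cells, COL5A2 was the highest at 122 ± 6.36 TPM and COL3A1 followed at 83.8 ± 3.9 TPM. COL1A1 came next at 9.18 ± 1.89 TPM, and its libraries were separate from those of COL2A1, COL5A1, COL5A3 and COL24A1, which lay between 2.59 and 4.09 TPM on average and did not separate as neighbours in the order. COL27A1 was at 0.103 ± 0.058 TPM. COL11A1 and COL1A2 were at the floor, with counts of 2, 0 and 0 and of 0, 2 and 0 in the 3 libraries.

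Tested gene by gene, 4 members were higher in TC71 than in EW8 under vehicle and 5 were lower, by an adjusted p under 0.05 (edgeR's quasi-likelihood test with Benjamini-Hochberg adjustment over all tested genes) and a log2 fold change beyond 1 in size. These limits define a called gene throughout. Among all tested genes, 11.6% were called higher and 18.9% lower in this comparison. The higher members were COL2A1, the cartilage collagen, at a fitted log2 change of 4.53 (SE 0.39), COL24A1 at 3.49, COL5A2 at 2.18 and COL3A1 at 1.79. The lower members were COL27A1 at -5.13 (SE 0.27), COL1A2 at -4.62, COL5A1 at -3.75, COL11A1 at -3.1 and COL5A3 at -1.14. COL1A2 and COL11A1 were at the floor in TC71, which for COL1A2 gives a bound of at least 3-fold lower than in EW8. For COL11A1 the same reckoning gives 1.06-fold. This is no firm bound, since its EW8 vehicle counts were themselves 2, 10 and 6. The COL11A1 call was lost without EW8 vehicle replicate 2 (adjusted p = 0.0931), TC71 vehicle replicate 2 (adjusted p = 0.072) or TC71 vehicle replicate 3 (adjusted p = 0.0639), and the COL5A3 value was -0.98 without TC71 vehicle replicate 3. COL1A1 was the only member not called, at -0.14 (adjusted p = 0.317). The lines were compared as grown, so that line and handling cannot be told apart.

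**Figure D1:**
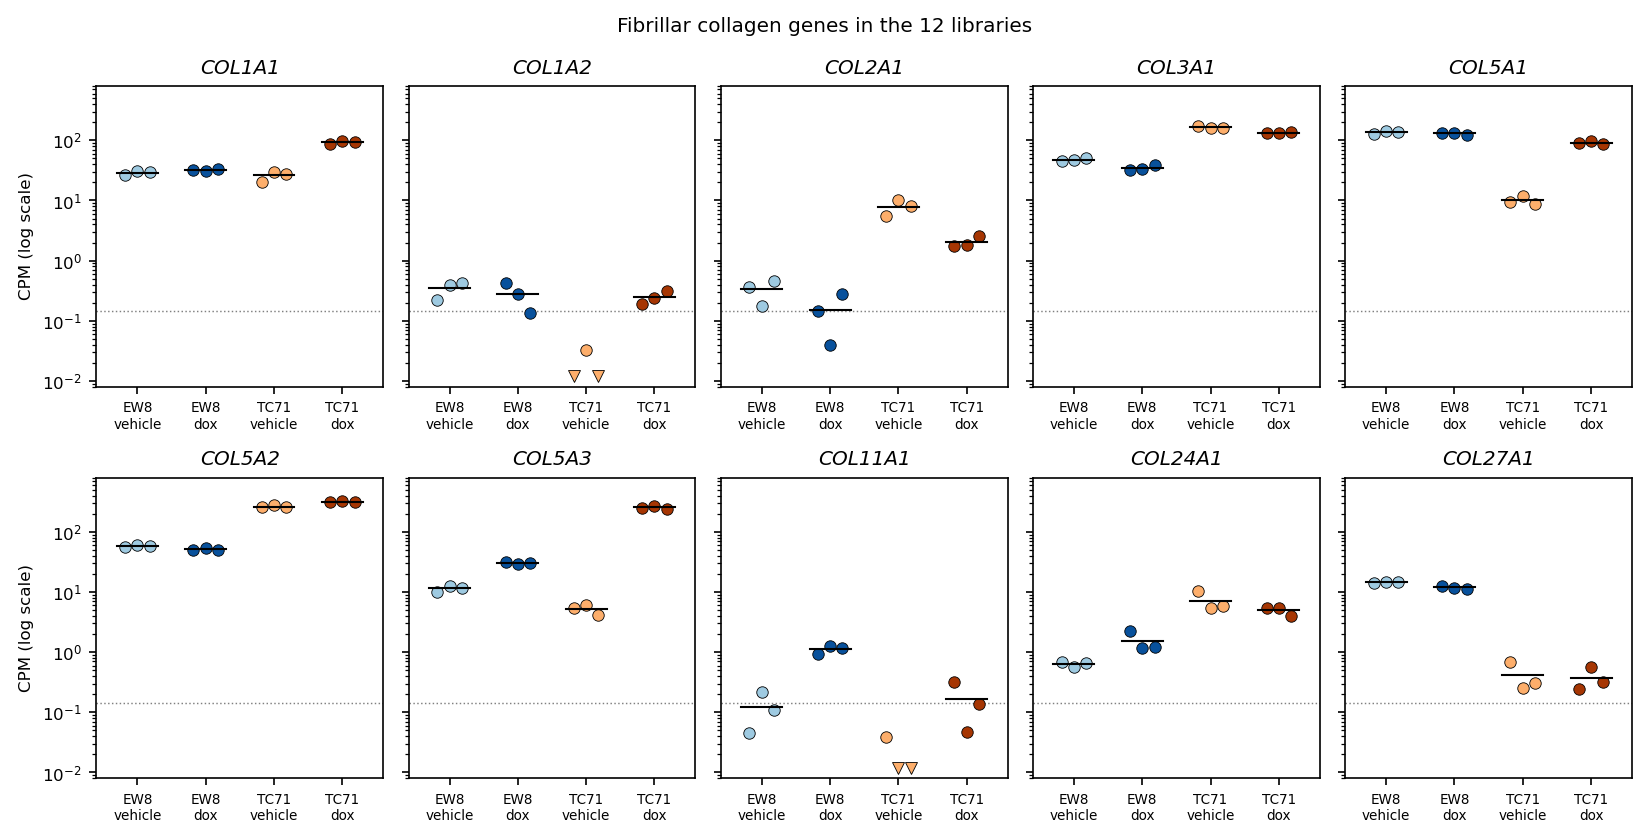
CPM (log scale) of each fibrillar collagen gene in every library, with a bar at the group mean where no library is at 0, triangles for libraries with 0 counts and a dotted line at the highest floor of 0.145 CPM. COL5A3 moves from 4.15 to 6.02 CPM up to 244 to 270 CPM in TC71, and COL5A2 and COL3A1 move little in either line.

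Doxycycline raised 3 members in EW8 and lowered none by these limits. In TC71 it raised 5 members and lowered 1. Of all tested genes, 11.4% were called higher and 3.38% lower in EW8, and 12.3% were called higher and 3.67% lower in TC71. The median log2 fold change of the 10 members was -0.13 in EW8 and 1.05 in TC71, beside -0.03 and 0 over all tested genes. The filter of 10 counts in every library, which leaves 7 members, gave 3 higher and 0 lower in TC71, and fitting the TC71 libraries alone gave 3 higher and 1 lower of 8 tested, since COL1A2 and COL11A1 passed the filter on low counts only with the EW8 libraries included. COL5A3 was called higher in both lines. COL11A1 was also called in both, but in TC71 on counts of 13 or fewer and not without TC71 doxycycline replicate 1 (adjusted p = 0.0798). In EW8 it was tested through the doxycycline group where it is high, and the filter of 10 counts gave 2 higher members there. COL3A1, COL5A2 and COL27A1 were called in neither. Without TC71 vehicle replicate 1 the counts in TC71 were again 5 higher and 1 lower. COL2A1 fell short of the adjusted threshold in EW8 at -1.18 (adjusted p = 0.0804). It passed with DESeq2 (adjusted p = 0.0364), with no filter on low counts (adjusted p = 0.0284), without EW8 vehicle replicate 2 (adjusted p = 0.0364) and without EW8 doxycycline replicate 3 (adjusted p = 0.0299), each of which made the count of lower members 1.

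**Figure D2:**
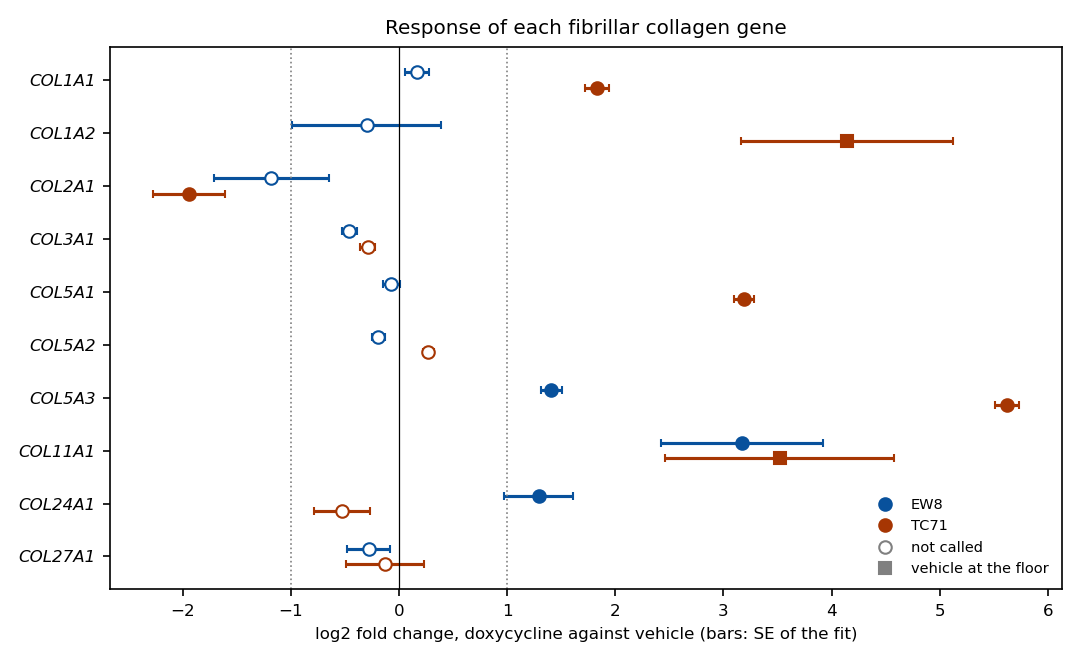
Log2 fold change of doxycycline against vehicle for each gene in EW8 (blue) and TC71 (brown), with the SE of the fit as bars and dotted lines at the limits of -1 and 1. Filled marks are called, open marks are not, and squares mark genes at the floor under vehicle, whose fitted value is no bound. COL5A3, at 1.41 and 5.62, and COL5A1, at -0.07 and 3.19, show the widest gaps between the lines among genes above the floor.

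The promoter windows of 3 members are shown first, those with enough bases outside the gene's own span, which left out COL11A1 and COL24A1. Of the 3, COL5A3 and COL5A1 rose together in TC71, and COL27A1 was called in neither line. RefSeq windows of 250 bases before to 50 bases after a transcription start (GRCh38.p14) were matched for 5 of the 10 members, COL5A1, COL5A3, COL11A1, COL24A1 and COL27A1. The bases before the start and outside the gene's own span are printed 5′ to 3′ on the gene's strand, with the bases of a CCAAT match, the motif of the factor NF-Y, in capitals.
COL5A3 (chr19:10010505-10010754, - strand): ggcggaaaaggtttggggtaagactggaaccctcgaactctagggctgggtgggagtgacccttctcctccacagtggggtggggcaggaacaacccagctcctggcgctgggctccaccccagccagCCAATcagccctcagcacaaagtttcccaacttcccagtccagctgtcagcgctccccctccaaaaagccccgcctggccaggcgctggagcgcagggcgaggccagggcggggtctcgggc
COL5A1 (chr9:134641553-134641773, + strand): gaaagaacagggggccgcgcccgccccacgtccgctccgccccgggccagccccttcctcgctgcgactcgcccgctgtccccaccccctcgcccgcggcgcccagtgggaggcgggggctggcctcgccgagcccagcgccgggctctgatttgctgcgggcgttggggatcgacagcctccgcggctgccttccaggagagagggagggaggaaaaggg
COL27A1 (chr9:114155287-114155536, + strand): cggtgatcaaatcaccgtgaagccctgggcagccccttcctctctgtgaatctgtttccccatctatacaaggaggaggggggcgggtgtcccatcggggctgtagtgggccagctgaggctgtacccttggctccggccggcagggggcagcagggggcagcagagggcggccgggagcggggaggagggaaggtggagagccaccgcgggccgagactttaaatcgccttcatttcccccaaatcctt
On either strand, none of the 5 genes' windows held TGANTCA, the AP-1 type motif, nor TGACGTCA, its CRE-type variant, nor 2 or more GGAA in tandem, the repeat that EWS-FLI1 is known to bind. Of 35116 RefSeq windows of the same length, 7.71% held TGANTCA, 1.85% TGACGTCA and 3.67% tandem GGAA. Counted by gene, as for the members, the shares were 9.37%, 2.25% and 4.5% of 27305 genes. CCAAT or its reverse complement was looked for after the other motifs had been counted. It was present in the windows of COL5A3 at -122 and COL11A1 at -110 from the start, in 34.61% of all windows and for 39.7% of all genes. These matches describe short windows alone, and nothing about binding of a factor follows from them.

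COL5A3 encodes a type V chain that is less widely made than the other type V chains, and its gene lies on chromosome 19 (9959561 to 10010471, minus strand, hg38). In EW8 it was at 10, 12.6 and 11.7 CPM under vehicle and at 31.2, 29.1 and 30.8 CPM under doxycycline. In TC71 it was at 5.33, 6.02 and 4.15 CPM under vehicle and at 253, 270 and 244 CPM under doxycycline. The groups did not overlap in either line, and the ratio of the mean CPM was 2.66 in EW8 and 49.5 in TC71. On the log2 scale the change in EW8 was 1.41 (adjusted p = 1.44e-09, SE 0.1) and that in TC71 was 5.62 (adjusted p = 2.29e-17, SE 0.11). An unnamed gene on the opposite strand overlaps COL5A3, and the counting did not use strand. As multiple overlap was not set, any reads over exons of both genes were assigned to neither. Reads of such a partner that fall only on COL5A3 exons cannot be told apart.

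COL5A1, on chromosome 9 (134641774 to 134844843, plus strand), encodes the chain found in most type V molecules. In EW8 it was high from the start, at 129, 141 and 139 CPM under vehicle and 133, 132 and 125 CPM under doxycycline, and these groups overlapped. In TC71 it went from 9.59, 11.8 and 8.85 CPM to 90.3, 98.2 and 87.6 CPM, a ratio of the mean CPM of 9.13. On the log2 scale the change in EW8 was -0.07 (adjusted p = 0.526, SE 0.08) and that in TC71 was 3.19 (adjusted p = 2.39e-15, SE 0.09). The TC71 doxycycline level came close to that of EW8 but stayed below it in every library. COL5A1-AS1 overlaps the gene on the opposite strand.

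COL5A2, the partner of COL5A1 in the common type V trimer, moved by little. It was at 55.6, 61.3 and 58.1 CPM in EW8 vehicle libraries and at 50.3, 53.1 and 49.9 CPM after doxycycline. In TC71 it was at 257, 277 and 257 CPM under vehicle and 314, 328 and 314 CPM after doxycycline. On the log2 scale the change in EW8 was -0.19 (adjusted p = 0.00972, SE 0.06) and that in TC71 was 0.27 (adjusted p = 0.000408, SE 0.05). Doxycycline libraries were thus all below vehicle in EW8 and all above it in TC71, with changes under the fold limit. Over the alternatives tried, the change in EW8 ran from -0.25 to -0.13, with an adjusted p of up to 0.178.

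COL3A1, the type III chain of skin, vessel and soft tissue fibrils, is the neighbour of COL5A2 on chromosome 2. The 2 genes point toward each other, and 19149 bases lie between their ends. COL3A1 was at 45.4, 47.4 and 50.3 CPM in EW8 vehicle libraries and 32, 33.9 and 38.6 CPM after doxycycline. In TC71 it was at 173, 162 and 160 CPM and then 131, 133 and 139 CPM. The doxycycline libraries were below the vehicle libraries in both lines, at log2 fold changes of -0.46 (adjusted p = 3.54e-05, SE 0.07) and -0.29 (adjusted p = 0.00156, SE 0.07), under the fold limit. In TC71 the neighbours therefore differed in sign, COL5A2 at 0.27 and COL3A1 at -0.29.

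COL1A1 encodes the more abundant chain of type I collagen, the main collagen of bone, tendon and skin. In EW8 it was at 26.1, 30.6 and 29.2 CPM under vehicle and 31.8, 31.2 and 33.8 CPM under doxycycline, which did not overlap but lay close, a fitted log2 change of 0.17 (adjusted p = 0.244, SE 0.11). In TC71 it went from 20, 30.1 and 28.1 CPM to 87.6, 96.8 and 93.9 CPM, a fitted log2 change of 1.83 (adjusted p = 1.88e-10, SE 0.11). TC71 vehicle replicate 1 was the lowest of its group, and without it the value was 1.59.

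COL1A2, the partner of COL1A1 in type I collagen, was close to the floor in all libraries. Its counts were 10, 18 and 24 in EW8 vehicle libraries and 24, 14 and 6 after doxycycline, which overlapped (log2 fold change -0.3, adjusted p = 0.768). In TC71 they were 0, 2 and 0 under vehicle and 8, 10 and 14 after doxycycline. The TC71 doxycycline level was at least 2.15-fold higher than the vehicle floor (adjusted p = 0.00191). COL1A2 passed the filter on low counts through the other groups, and was not tested when the 6 TC71 libraries were fitted alone.

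COL2A1, the collagen of cartilage, was the only member called lower. In TC71 it went from 5.46, 10 and 8.17 CPM under vehicle to 1.75, 1.82 and 2.59 CPM after doxycycline, which did not overlap. The log2 fold change was -1.94 (adjusted p = 7.99e-05, SE 0.33), a mean CPM of 0.26 times that of vehicle. In EW8 its counts were 16, 8 and 26 under vehicle and 8, 2 and 12 after doxycycline, which overlapped. SOX9, the activator of COL2A1 in cartilage, was at the floor in all 4 groups. The 10 chondrocyte markers, which leave out COL2A1, summed to 65.6 to 69.9 CPM in EW8 vehicle and 34.4 to 37.2 CPM in EW8 doxycycline libraries. In TC71 they summed to 10.8 to 13.1 CPM under vehicle and 12.7 to 15.8 CPM under doxycycline. Of the 7 tested, 1 was called higher and 1 lower in EW8, ACAN from the floor and HAPLN1 at -1.46. In TC71, 2 were called higher, MATN3 at 2.06 and COMP from the floor. Another 2 were called lower there, COL9A2 at -1.31 and COL9A3 at -1.13.

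COL11A1, a type XI chain that initiates cartilage fibrils, rose in EW8 from counts of 2, 10 and 6 to 52, 65 and 52. The log2 fold change was 3.17 (adjusted p = 0.00201, SE 0.75) and the ratio of the mean CPM 9.18. COL11A1 passed the filter on low counts through the EW8 doxycycline libraries, the group in which it is called higher. A gene let in this way could not have been called lower in EW8. In TC71 the counts were 2, 0 and 0 under vehicle and 13, 2 and 6 after doxycycline. The TC71 call (adjusted p = 0.0111) allows only a bound of at least 1.43-fold, was lost without TC71 doxycycline replicate 1 (adjusted p = 0.0798), and had a vehicle library and a doxycycline library with the same count of 2. Its fitted log2 fold change went from 3.52 to 6.03 without TC71 vehicle replicate 1, which left a vehicle group of 0 counts, and the gene was not tested when the TC71 libraries were fitted alone. COL11A2, the type XI gene outside the list, lay between 0.375 and 1.55 TPM in all 12 libraries.

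COL24A1, a minor fibrillar collagen described in developing bone, rose in EW8 and did not pass in TC71. In EW8 it was at 0.677, 0.567 and 0.665 CPM under vehicle and 2.22, 1.19 and 1.23 CPM after doxycycline, a fitted log2 change of 1.29 (adjusted p = 0.00271, SE 0.32). Replicate 1 was the highest of the EW8 doxycycline libraries, and without it the value was 0.97 (adjusted p = 0.0197), below the fold limit. With limma-voom the adjusted p was 0.0537. In TC71 it was at 10.2, 5.46 and 5.92 CPM under vehicle and 5.45, 5.45 and 4.05 CPM after doxycycline, with the lowest vehicle library just above the highest doxycycline library, a fitted log2 change of -0.53 (adjusted p = 0.111, SE 0.26).

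COL27A1, a minor fibrillar collagen of cartilage, was present almost only in EW8. It was at 14.2, 14.7 and 14.6 CPM in EW8 vehicle libraries and 12.8, 11.7 and 11.2 CPM after doxycycline, a fitted log2 change of -0.28 (adjusted p = 0.275). In TC71 its counts were 36, 16 and 16 under vehicle and 10, 24 and 14 after doxycycline, and these groups overlapped. The log2 fold change there was -0.13 (adjusted p = 0.824) and turned to 0.34 without TC71 vehicle replicate 1.

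The difference between the responses, TC71 minus EW8, was tested in the same fit. It was called higher for 4 members and lower for 1, where 4.18% and 2.87% of all tested genes were called. COL5A3 differed by 4.21 on the log2 scale (adjusted p = 5.82e-13, SE 0.14), COL5A1 by 3.26 (adjusted p = 1.4e-12, SE 0.12) and COL1A1 by 1.66 (adjusted p = 5.18e-07, SE 0.16). COL1A2 differed by 4.45 (adjusted p = 0.0143, SE 1.21), a fitted value that rests on a group at the floor and is no bound. COL24A1 differed by -1.81 (adjusted p = 0.00383, SE 0.41), its response in TC71 being the lower. COL5A2 differed by 0.46 (adjusted p = 0.000301), under the fold limit. By the adjusted p alone, 5 members were higher and 1 lower, where 12.2% and 7.07% of all tested genes were. COL3A1, at 0.16 (adjusted p = 0.293), COL2A1, at -0.76 (adjusted p = 0.492), COL11A1, at 0.35 (adjusted p = 0.867), and COL27A1, at 0.16 (adjusted p = 0.869), gave no difference past the threshold. The rise of FOS and JUN also differed between the lines, by 2.21 (adjusted p = 6.41e-12) and by 0.73 (adjusted p = 0.00217, under the fold limit). Under doxycycline, JUN was 0.67 and FOS 0.55 higher in TC71 (log2). Cell line and level of the transgenes cannot be told apart in these differences.

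**Figure D3:**
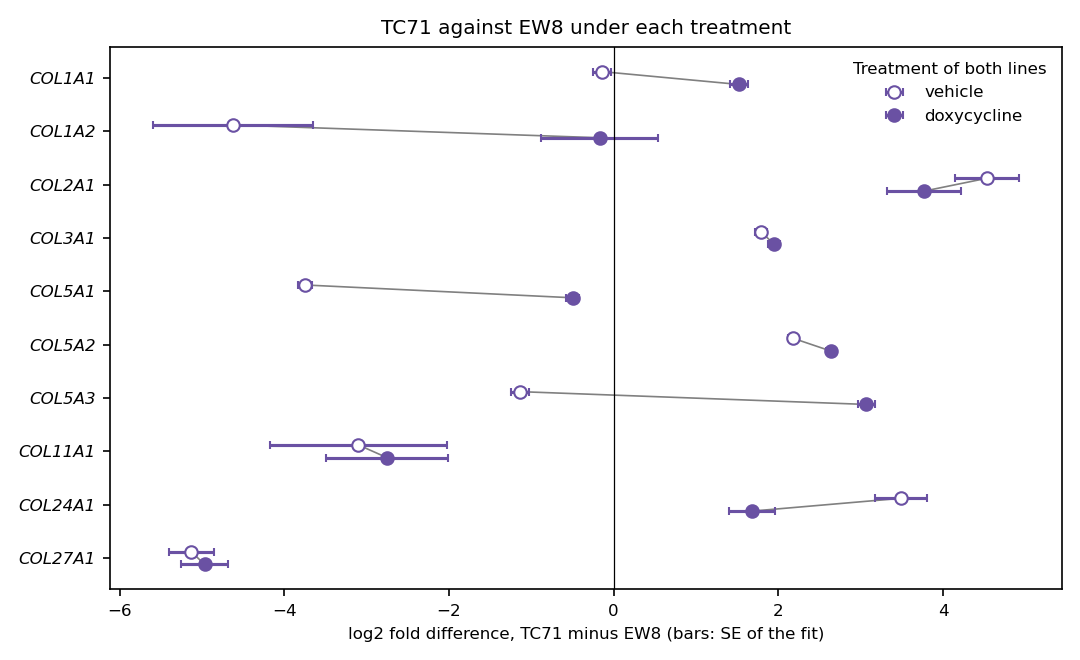
Log2 fold difference of TC71 minus EW8 for each gene under vehicle (open) and doxycycline (filled), with the SE of the fit as bars. COL5A3 goes from -1.14 to 3.07 and COL5A1 from -3.75 to -0.5, while COL27A1 is at -5.13 and -4.97. COL1A2 and COL11A1 are at the floor in TC71 under vehicle.

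After doxycycline, 6 members were called higher in TC71 than in EW8 and 2 were called lower, beside 12.6% and 18.4% of all tested genes. COL5A3 had crossed over, from a log2 fold difference of -1.14 under vehicle to 3.07 (SE 0.1). COL5A1 had narrowed from -3.75 to -0.5 (adjusted p = 2.6e-05), inside the fold limit. COL1A1, whose vehicle libraries overlapped between the lines, stood 1.52 higher in TC71 (adjusted p = 1.18e-09, SE 0.11). COL1A2, at the floor in TC71 vehicle cells, was now at -0.17 (adjusted p = 0.849). COL2A1 at 3.77, COL5A2 at 2.64, COL3A1 at 1.95 and COL24A1 at 1.68 were still higher in TC71, and COL27A1 at -4.97 and COL11A1 at -2.75 lower. COL11A1 was tested through the EW8 doxycycline group, where it is high. This comparison shares its libraries with the responses above.

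The sum over the 10 members was 117 ± 5.43 TPM in EW8 vehicle libraries and 112 ± 1.04 TPM after doxycycline, which overlapped (exact two-sided permutation test, p = 0.4). In TC71 it was 227, 237 and 220 TPM under vehicle and 398, 422 and 410 TPM after doxycycline, all above vehicle (exact permutation p = 0.1). With 3 libraries against 3, 0.1 is the smallest p that this test can give. Type V chains made up most of the sum in every group, at 66.1% ± 0.654 in EW8 vehicle, 70.6% ± 1.61 in EW8 doxycycline, 56.2% ± 1.2 in TC71 vehicle and 74.7% ± 0.942 in TC71 doxycycline libraries (SD, n = 3). COL5A3 alone went from 5.14% ± 0.342 to 13.8% ± 0.502 of the sum in EW8 and from 1.16% ± 0.18 to 31.8% ± 0.801 in TC71. COL3A1 went from 36.8% ± 1.95 to 16.6% ± 0.796 of the sum in TC71, and COL5A2 from 53.7% ± 1.02 to 35.9% ± 0.155. The shares of both were lower in every TC71 doxycycline library, although the CPM of COL5A2 was higher.

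**Figure D4:**
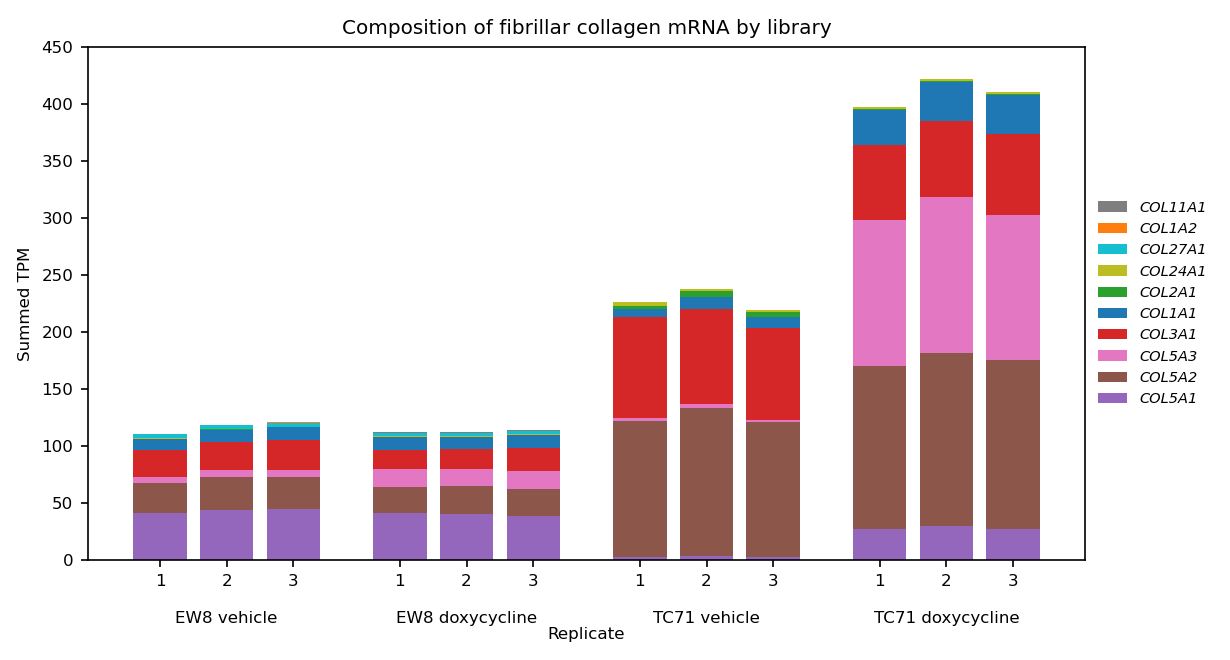
Summed TPM of the 10 genes in each library, stacked by gene, with the replicate number below each bar. The TC71 doxycycline bars reach 398 to 422 TPM with COL5A3 as a second main part beside COL5A2, while the EW8 bars stay between 110 and 121 TPM.

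Among type V transcripts, COL5A3 held 7.78% ± 0.482 in EW8 vehicle and 19.6% ± 0.924 in EW8 doxycycline libraries, and 2.06% ± 0.305 in TC71 vehicle and 42.6% ± 0.541 in TC71 doxycycline libraries. For each COL5A2 transcript there were 1.56 ± 0.0372 COL5A1 transcripts in EW8 vehicle and 1.7 ± 0.0547 in EW8 doxycycline libraries. In TC71 this ratio was 0.0249, 0.0284 and 0.0229 under vehicle and 0.192, 0.2 and 0.186 after doxycycline. COL5A1 was thus still the minor partner in TC71 after its rise. The ratio of COL5A3 to COL5A2 was 0.216 ± 0.0146 and 0.658 ± 0.0451 in EW8, and 0.0216 ± 0.0033 and 0.886 ± 0.0244 in TC71. Both ratios were higher in every doxycycline library of a line than in its vehicle libraries (exact permutation p = 0.1 in each line). COL1A1 exceeded COL1A2 by 99 ± 28.6 times in EW8 vehicle and by 436 ± 91.4 times in TC71 doxycycline libraries. In the other 2 groups COL1A2 had libraries with 6 counts or fewer, and no ratio was computed.

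The genes whose pattern over the 12 libraries was nearest to each called member were found by the root mean square difference of log2 CPM centred on each gene's mean. For COL5A3 it was LOXL2, a collagen crosslinking enzyme, at 0.431, with log2 fold changes of 1.42 in EW8 and 5.21 in TC71. PRG4, the lubricating proteoglycan of joints, followed at 0.493. For COL5A1 it was COL6A1, a chain of the beaded-filament collagen VI, at 0.215, with 0.11 in EW8 and 2.86 in TC71. COL1A1 was nearest to XYLT2, an enzyme that starts glycosaminoglycan chains on proteoglycans, at 0.151, with 0.39 in EW8 and 1.9 in TC71. COL24A1 was nearest to the Notch ligand gene JAG1 at 0.348, with 1.46 in EW8 and -0.5 in TC71. The nearest gene was CELSR1 at 0.397 for COL1A2, AKR1C4 at 0.488 for COL11A1 and AK7 at 0.544 for COL2A1. The points share the 12 libraries, and these are descriptions.

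Genes that work on fibrillar collagen were read from lists, whose counts stand beside 11.4% higher and 3.38% lower in EW8 and 12.3% and 3.67% in TC71 over all tested genes. Of 25 genes for chain modification, folding and export, 3 rose and 1 fell in EW8 (12% and 4% of the list, near the shares over all tested genes, median log2 fold change 0.05), and 5 rose and none fell in TC71 (20% higher, median 0.45). P4HA3, a collagen prolyl hydroxylase subunit, rose by 3.8 in EW8 (log2, adjusted p = 2.28e-10), where P3H2, a prolyl hydroxylase of another position, fell by 1.1, or by 0.97 without EW8 doxycycline replicate 3. CREB3L1, a transcription factor of collagen secretion, rose from 0.191 ± 0.201 to 8.8 ± 1.66 CPM in TC71. Both genes were called higher in the other line too, P4HA3 at 4.38 in TC71 and CREB3L1 at 2.92 in EW8 (log2). Of the 9 procollagen processing genes tested, 3 rose and none fell in EW8 (33.3%, median 0.85), and 5 rose and 1 fell in TC71 (55.6% and 11.1%, median 1.85). BMP1, the protease that removes the C-terminal end pieces, rose from 14.4 ± 1.43 to 99.9 ± 6.9 CPM in TC71, and its relative TLL1 fell by 1.36 (log2). ADAMTS14, a protease of the N-terminal end piece, was at the floor in EW8 vehicle cells and at least 1.26-fold higher after doxycycline (adjusted p = 0.0483), a call lost without any 1 of the 6 EW8 libraries (adjusted p = 0.0619 to 0.146). It was called higher in TC71 too, at 2.56 (log2, adjusted p = 0.00899). Its counts there were 22, 1 and 8 under vehicle and 36, 48 and 64 after doxycycline.

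Of the 5 lysyl oxidase genes, which crosslink fibrils, 2 rose in EW8 and 3 rose in TC71, and none fell (40% and 60% higher, medians 0.98 and 2.21). LOXL2 went from 7.18 ± 1.27 to 266 ± 14.7 CPM in TC71, and LOXL4 from 0.276 ± 0.0844 to 2.19 ± 0.12 CPM in EW8. LOXL2 was also called higher in EW8, at 1.42 (log2), and LOXL4 in TC71, at least 2.89-fold from a vehicle group at the floor. Of the 7 tested fibril-associated collagens, which sit on the fibril surface, 1 rose and 1 fell in EW8 and 1 rose and 2 fell in TC71 (14.3% higher in each, 14.3% and 28.6% lower, medians -0.01 and 0.16). In EW8, 2 rose without vehicle replicate 1 or 2 and 2 fell without vehicle replicate 1, and in TC71 1 fell without vehicle replicate 2. COL21A1 fell by 1.55 and COL19A1 rose by 1.21 in EW8 (log2), and COL12A1 rose by 2.35 and COL9A2 fell by 1.31 in TC71. Of the 10 tested fibril-binding proteoglycans and glycoproteins, 3 rose and 1 fell in EW8 and 3 rose and 2 fell in TC71 (30% higher in each, 10% and 20% lower, medians -0.51 and 0.26). TGFBI, a collagen-binding matrix protein, rose by 9.93 in EW8 (log2) and was at least 4870-fold higher in TC71, from the floor to 566.8 ± 20.5 CPM. LUM and DCN, small proteoglycans that coat fibrils, had the lowest called values. In EW8 the counts of LUM were 24, 34 and 10 under vehicle and 8, 6 and 0 after doxycycline (adjusted p = 0.00616), and as the gene was not tested with EW8 fitted alone or with the filter of 10 counts, 0 genes of the list fell there. DCN was at -1.73 in TC71, where LUM was also called lower, at -1.66 (adjusted p = 0.00585).

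Of the 11 tested collagen receptors, 3 rose in EW8 and 5 in TC71, and none fell (27.3% and 45.5% higher, medians 0.62 and 1.55). CD44, a receptor for hyaluronan that also binds collagen, had 0 counts in all EW8 vehicle libraries and was at least 80.8-fold higher after doxycycline, and rose from 0.0429 ± 0.0744 to 39.8 ± 2.16 CPM in TC71. In EW8, 5 receptors rose with DESeq2 or with EW8 fitted alone. Of the 9 tested genes for collagenases and collagen breakdown, 3 rose and 1 fell in EW8 (33.3% and 11.1%, median 0.65), and 6 rose and none fell in TC71 (66.7%, median 3.92). MMP1, the interstitial collagenase that cuts types I, II and III, went from 0.419 ± 0.111 to 60.6 ± 3.68 CPM in EW8 and from 0.139 ± 0.0995 to 942.6 ± 35.1 CPM in TC71. With the filter of 10 counts in every library, 1 receptor of 6 and 1 breakdown gene of 5 tested rose in EW8, and 2 of each in TC71. CTSK, the bone-resorbing protease cathepsin K, fell by 1.12 in EW8 (log2). Of 28 tested regulators of collagen transcription, 8 rose and none fell in EW8 (28.6%, median 0.06), and 6 rose and 1 fell in TC71 (21.4% and 3.57%, median 0.03). Without EW8 vehicle replicate 2, 1 fell in EW8, and without TC71 vehicle replicate 2 or 3 or TC71 doxycycline replicate 2 or 3, 2 fell in TC71. ETS1, an ETS-family factor, was at least 151-fold higher after doxycycline in EW8 and at least 37.8-fold higher in TC71, from vehicle groups at the floor. ETS1 and CD44, like TGFBI above, passed the filter on low counts through the doxycycline groups, where they are high. Genes let in this way could not be called lower. EGR1, an immediate-early factor, was the lowest in TC71, at -1.38, but was called higher in EW8, at 1.53 (adjusted p = 6.71e-06).

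**Figure D5:**
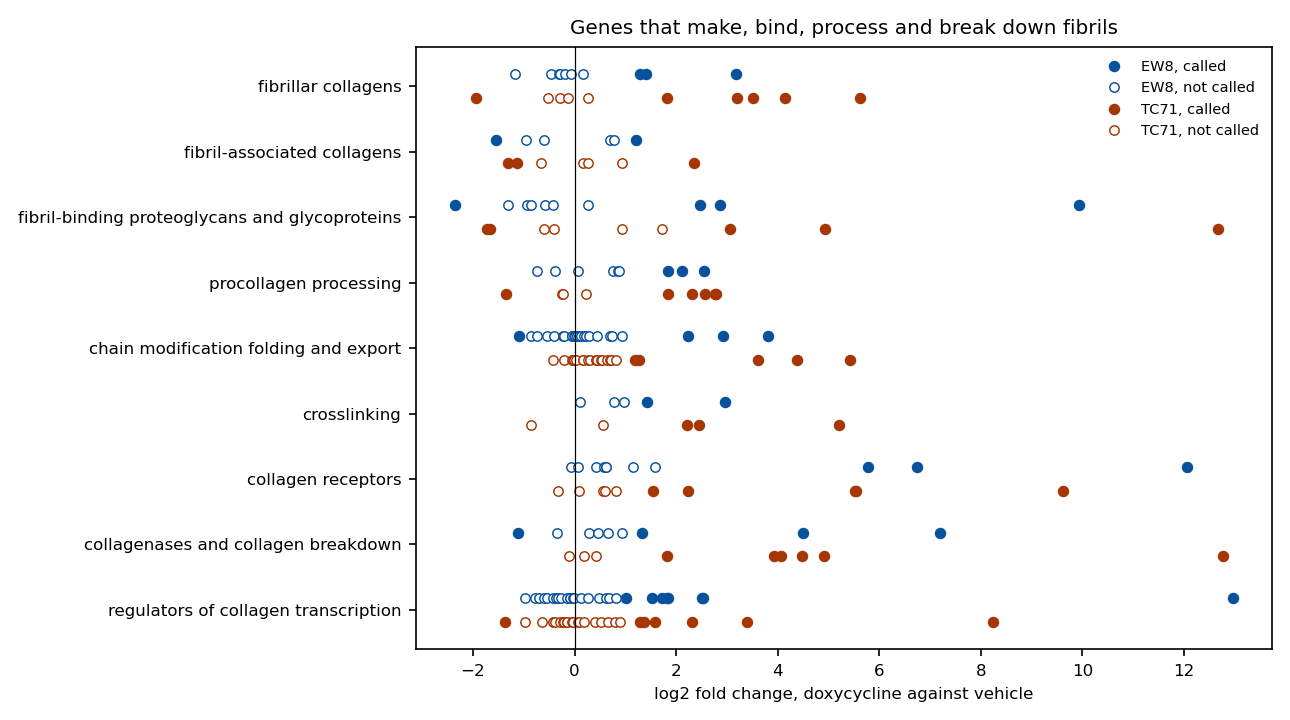
Log2 fold change of doxycycline against vehicle for every tested gene of each list in EW8 (blue) and TC71 (brown), filled where called and open where not, with genes at the floor in both groups of a line left out. Fibrillar collagens range from -1.18 to 3.17 in EW8 and from -1.94 to 5.62 in TC71, and MMP1 reaches 12.77 among the breakdown genes.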

How the data were processed

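RNA-seq of polyadenylated RNA from 12 libraries was analysed, 3 in each of 4 groups set by the labels. The authors prepared TruSeq Stranded mRNA libraries, sequenced paired-end reads, aligned them to hg38 with STAR and deposited raw counts per gene from featureCounts (version 2.0.1, GENCODE 29). Per the file headers, the options for paired counting, strand, multiple mapping and multiple overlap were not set, so mates were counted singly and strand was unused. The gene length in the deposited table served for TPM, computed here over all genes.

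Counts were tested with edgeR (4.0.16, R 4.3.3) by the quasi-likelihood F-test with TMM scaling and the filterByExpr filter, in 1 fit of all 12 libraries, with Benjamini-Hochberg adjustment over 21013 genes that held 99.95% of counts. Calls were made at adjusted p below 0.05 with a log2 fold change over 1 in size. CPM used TMM scaling. A floor of 6 counts in every library of a group set the bounds and covers counting error only. Symbols were matched for 99.1% of genes. The fitting code was tested on simulated data. The labels place all libraries on the same lane. Replicate numbers were used only as names. Alternatives were other scaling, filters, tools (DESeq2 1.42.0, limma-voom 3.58.1), halved counts, fits by line, a replicate block and leaving out each library.

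The members and the lists were chosen with earlier results of these data known. Named genes were all members and, from each list, the called genes with the highest and lowest fold change in each line. The CCAAT motif and the ratio of COL5A3 to COL5A2 were added after values had been seen. Protein sequences were not analysed here.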

Additional observations from a re-analysis of the deposited data

Results flagged for a closer look

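The responses of 5 members were called different between the lines by the test of the difference itself, TC71 minus EW8 on the log2 scale (edgeR, adjusted over all tested genes), and that of COL5A2 passed the adjusted p but not the fold limit. By the adjusted p alone, 5 members were higher and 1 lower, beside 12.2% and 7.07% of all tested genes. COL5A3 differed by 4.21, with all 6 doxycycline libraries above the vehicle libraries of their line. COL5A1 differed by 3.26, its EW8 libraries overlapping between treatments. COL1A1 differed by 1.66, and by 1.38 without TC71 vehicle replicate 1. COL5A2 differed by 0.46, its doxycycline libraries lying below vehicle in EW8 and above it in TC71. Its fall in EW8 did not pass the adjusted p under every alternative (up to 0.178). COL24A1 differed by -1.81, and no alternative tried lost this call, although that of its own response in EW8 was lost without EW8 doxycycline replicate 1. COL1A2 differed by 4.45 at counts of 24 or fewer in every library. The response of FOS differed by 2.21 and that of JUN by 0.73 in the same test. FOS started lower in TC71, at -1.65 against EW8 under vehicle (log2). With doxycycline, FOS was 0.55 and JUN 0.67 higher in TC71. Line and level of the transgenes cannot be told apart. Causes of these differences were not tested.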

How the results depend on the processing

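Of the counts of called members, 154 values under alternatives stayed within 1.5 times the reported count and 12 did not. The filter of 10 counts in every library, which tests 7 members, gave 3 higher and 0 lower members in TC71, 3 lower members for TC71 against EW8 under vehicle and 1 under doxycycline. Fitting the libraries of TC71 alone gave 3 higher members, since COL1A2 and COL11A1 were then not tested. No limit on the fold change gave 2 lower members in each line. With no filter on low counts and with DESeq2, 1 member was lower in EW8. Leaving out a library gave 0 to 1 lower members in EW8 and 3 to 5 lower members for TC71 against EW8 under vehicle, 3 without TC71 vehicle replicate 3. With the replicate block, 3 members were higher in EW8 and 5 in TC71 and no member's call changed, and ADAMTS14 lost its call in EW8 (adjusted p = 0.0724). Nothing in the labels states that same-numbered libraries are paired. Their deviations from the group means correlated by -0.028 to 0.018, which cannot show whether they shared a culture or harvest. Counts of called list genes stayed within 1.5 times in 467 values and moved further in 45, of which 15 came from no limit on the fold change, 9 from the filter of 10 counts and 10 from a library left out. COL5A1 per COL5A2 was 2.34 and 2.55 in EW8 and 0.0381 and 0.289 in TC71 as ratios of CPM.

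Signs turned only for values that were not called. Leaving out a library took COL1A1 between the lines under vehicle from -0.25 to 0.13 (positive without TC71 vehicle replicate 1), COL1A2 from -0.7 to 0.05 in EW8 and from -0.56 to 0.25 between the lines under doxycycline, and COL27A1 in TC71 from -0.55 to 0.34. The differences of the responses ran from 0 to 0.2 for COL3A1, from -0.47 to 2.81 for COL11A1, which gave -0.09 with limma-voom, and from -0.26 to 0.58 for COL27A1. Depth limits COL1A2, COL2A1 in EW8 and COL11A1, whose counts were often below 10. The causes of these shifts were not tested.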
